A study of Mus musculus with 4 samples.

Results

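Microglia, the resident macrophages of the brain, were followed through 10 genes in left hippocampi, taken whole from wild-type mice: Cx3cr1, Csf1r, C1qa, C1qb, C1qc, P2ry12, Tmem119, Tyrobp, Ctss and Trem2. All probe sets that the array's probe table assigns to exactly 1 of these symbols were taken, which gave 16 of 45101 probe sets, of which 34958 carry a single symbol. Every one of the 10 genes had at least 1 probe set, 6 of them only 1, and no probe set with several symbols included a member. The 4 samples, numbered 11, 13, 15 and 17 in the labels, form 1 group of biological replicates. All are wild type, with no treatment, strain, age or sex named in the labels used here, and each was measured on its own Affymetrix array. Values are log2 intensities, so a difference of 1 is a doubling, and gene levels are given as mean ± SD (n = 4). Since there is no second group, the comparisons are of each gene with background and of the samples with each other.

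In the healthy brain, microglia tile the tissue with motile processes and carry a characteristic set of surface receptors, by which they are told from other macrophages. They are also the main source of C1q in the brain, the recognition protein that starts the classical complement pathway and marks material, synapses among it, for removal. C1q is built from A, B and C chains, each the product of its own gene. TREM2 reads lipids and lipoproteins at the surface and signals through TYROBP, an adaptor with a tyrosine-based activation motif. Microglial survival depends on CSF1R, the receptor for CSF1 and IL-34.

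In the RefSeq table of assembly GRCm38.p6, C1qb, C1qc and C1qa follow each other on chromosome 4 with no other protein-coding gene between them. RefSeq promoters, 250 bases before and 50 after the start site, of 6 members were searched on both strands for GAGGAA, the purine-rich core bound by PU.1, the transcription factor of macrophages and microglia. It was found in the promoters of C1qb, C1qc, Ctss and Trem2, or 4 of 6, against 28.3% of 32851 promoters of the same length, and not in those of Cx3cr1 and P2ry12. A match describes the letters in this window only. The following promoters are shown because C1qb and C1qc had the smallest spread of their difference among the C1q chains over all 4 samples, because Ctss is the gene with 2 matches, and because Cx3cr1 varied least of the detected members. Matches to GAGGAA or its reverse complement TTCCTC are in capitals, and every line runs 5′ to 3′ on the strand of the gene.
C1qb (chr4:136886151-136886450, minus strand, GRCm38.p6): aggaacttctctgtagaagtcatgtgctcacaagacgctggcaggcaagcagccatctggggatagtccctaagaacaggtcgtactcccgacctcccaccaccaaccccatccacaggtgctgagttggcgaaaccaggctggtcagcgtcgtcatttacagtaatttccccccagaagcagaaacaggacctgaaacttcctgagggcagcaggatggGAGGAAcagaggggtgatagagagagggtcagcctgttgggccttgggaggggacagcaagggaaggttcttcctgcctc
C1qc (chr4:136892865-136893164, minus strand, GRCm38.p6): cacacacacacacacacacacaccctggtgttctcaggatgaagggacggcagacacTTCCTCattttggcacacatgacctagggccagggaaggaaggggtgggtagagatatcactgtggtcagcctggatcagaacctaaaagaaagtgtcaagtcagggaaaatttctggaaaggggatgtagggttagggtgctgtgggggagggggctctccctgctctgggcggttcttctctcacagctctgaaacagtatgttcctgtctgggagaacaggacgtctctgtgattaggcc
Ctss (chr3:95526536-95526835, plus strand, GRCm38.p6): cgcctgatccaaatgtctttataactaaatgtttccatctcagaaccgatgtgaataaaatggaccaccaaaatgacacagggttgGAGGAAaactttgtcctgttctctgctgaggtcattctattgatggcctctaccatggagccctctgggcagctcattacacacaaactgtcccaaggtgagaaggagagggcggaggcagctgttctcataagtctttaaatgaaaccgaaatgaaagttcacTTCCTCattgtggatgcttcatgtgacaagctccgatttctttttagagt
Cx3cr1 (chr9:120068247-120068546, minus strand, GRCm38.p6): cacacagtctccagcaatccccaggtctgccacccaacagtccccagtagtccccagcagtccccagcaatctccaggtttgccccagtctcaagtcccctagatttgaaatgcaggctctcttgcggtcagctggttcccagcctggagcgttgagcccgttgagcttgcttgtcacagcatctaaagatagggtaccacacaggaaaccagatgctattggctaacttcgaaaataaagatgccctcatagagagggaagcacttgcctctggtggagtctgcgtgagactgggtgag
The match begins 30 bases before the start site in C1qb and 193 bases before it in C1qc. In Ctss the first begins 164 bases before the start site and the other at the start site itself.

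Detection was judged against a background limit of 6.79, the 95th percentile over 51 genes of liver, muscle, skin, testis and other tissues, whose median level was 3.66. Of the 10 genes, 8 lay above it by their probe set with the highest mean, against 39.7% of 18194 genes on the array. P2ry12 and Trem2 lay under it. Of the background genes themselves, Krt10, Lct and Lor were above the limit, and whether hippocampus expresses them was not tested. A gene under the limit may still be expressed. The 8 detected genes had levels between 7.16 and 9.92. Signals of different probe sets depend on their affinity and give no ranking of the genes.

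**Figure D1:**
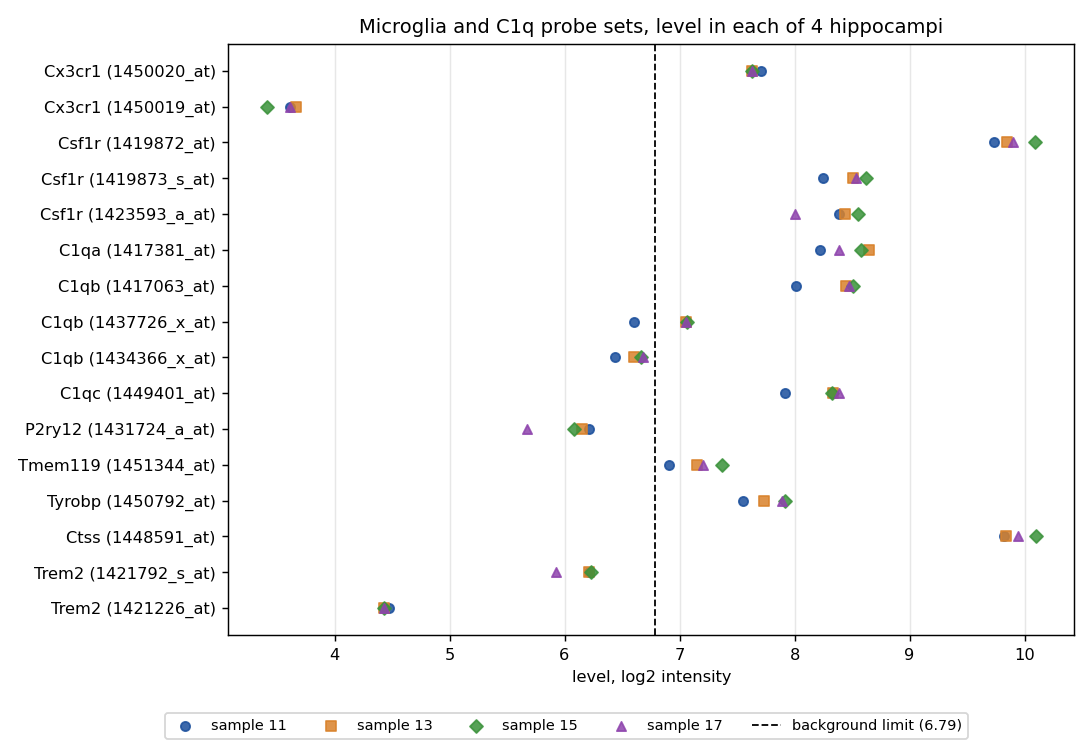
Level of each of the 16 probe sets (rows, gene and probe set) in each of the 4 samples on the log2 intensity axis, with the background limit of 6.79 as a dashed line. The 11 probe sets whose mean lies to the right of it belong to 8 genes, and sample 11 lies at the left end for 9 of these 11.

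Markers of the main cell types of hippocampus were mostly detected, where 39.7% of all genes were. Neuronal markers were above the limit in 10 of 10 cases, astrocyte markers in 10 of 11, oligodendrocyte and myelin markers in 9 of 11 and endothelial markers in 6 of 10. Of the genes above the limit 47.8% were lowest in sample 11, against 18.4%, 12.7% and 13.2% in samples 13, 15 and 17. The 3' minus 5' difference of Gapdh probe sets, a measure of how far labelled RNA reaches towards the 5' end, came to 0.62, 0.62, 2.64 and 3.79 for samples 11, 13, 15 and 17. The beta-actin difference came to 1.10, 1.25, 1.93 and 2.33. Many probe sets hold equal values in several samples (24009 of 45101 in at least 2), which lowers their SD.

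The genes of all 3 C1q chains were lowest in sample 11. C1qa, the A chain, stood at 8.22, 8.64, 8.58 and 8.39 in samples 11, 13, 15 and 17 (8.46 ± 0.19). C1qb, the B chain, stood at 8.02, 8.45, 8.51 and 8.47 (8.36 ± 0.23), and C1qc, the C chain, at 7.91, 8.33, 8.32 and 8.39 (8.24 ± 0.22). Samples 13, 15 and 17 lay above sample 11 for each chain and close together for C1qb and C1qc. Set against sample 11, C1qb was 1.35-fold higher in sample 13, 1.41-fold in sample 15 and 1.37-fold in sample 17, and C1qc was 1.34-fold, 1.33-fold and 1.39-fold higher. C1qa was 1.34-fold higher in sample 13 but only 1.13-fold in sample 17. In such bulk tissue, fewer cells of a type and less RNA per cell cannot be told apart.

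The B and C chains moved nearly in parallel. After each gene was centred on its own mean, C1qb minus C1qc was -0.019, -0.0096, 0.065 and -0.037 in samples 11, 13, 15 and 17, with an SD of 0.045 (0.014 without sample 15), against SDs of 0.23 and 0.22 for the genes alone. C1qa minus C1qb was 0.11, 0.10, -0.027 and -0.18 (SD 0.14), and C1qa minus C1qc was 0.087, 0.092, 0.038 and -0.22 (SD 0.15). C1qa was thus relatively low in sample 17, the sample with the largest Gapdh 3' minus 5' difference, whose part in this was not tested. Without sample 17 the order of the pairs turned: the SD was 0.030 for C1qa minus C1qc, 0.046 for C1qb minus C1qc and 0.076 for C1qa minus C1qb.

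The probe sets of C1qb agreed on the low sample. The second, with a mean of 6.94 ± 0.23, stood at 6.60, 7.05, 7.07 and 7.05 in samples 11, 13, 15 and 17. The third lay under the limit at 6.44, 6.60, 6.66 and 6.68. By their names, both belong to a class of sets whose probes may also bind other transcripts. All 3 were lowest in sample 11, and their spans were 1.41-fold, 1.38-fold and 1.19-fold.

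Among the receptors, Csf1r was lowest in sample 11 by 2 of its 3 probe sets and highest in sample 15 by all 3. In samples 11, 13, 15 and 17 the set with the highest mean stood at 9.73, 9.85, 10.09 and 9.90 (9.89 ± 0.15) and the second at 8.25, 8.51, 8.62 and 8.53 (8.48 ± 0.16). The third stood at 8.39, 8.44, 8.55 and 8.003 (8.35 ± 0.24). There sample 17 was lowest, 0.68-fold of sample 15, where the first set gave 0.88-fold. The 3 sets of Csf1r therefore differ on which sample was low. Sample 17 has the largest Gapdh 3' minus 5' difference, and its part in the low value was not tested.

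Cx3cr1, the receptor for the neuronal chemokine fractalkine, hardly varied. It stood at 7.71 in sample 11 and at 7.63 in each of samples 13, 15 and 17 (7.65 ± 0.040), so it was highest in the sample where the other 7 detected members were lowest. Of all genes above the limit, 82.6% had an SD at least as large. Its other probe set gave 3.61, 3.66, 3.41 and 3.61, under the limit.

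P2ry12, the receptor by which microglia sense ADP from injured cells, was under the limit by its only probe set, at 6.21, 6.15, 6.08 and 5.67 in samples 11, 13, 15 and 17 (6.03 ± 0.24). Sample 17 stood 0.53 below sample 11 while samples 13 and 15 lay within 0.12 of sample 11. Trem2, the lipid-sensing receptor, was also under the limit, at 6.21, 6.21, 6.23 and 5.93 (6.15 ± 0.14), and its second probe set stood at 4.44 ± 0.021. By their sets with the highest mean, both genes were lowest in sample 17 and not in sample 11. The second Trem2 set was highest in sample 11 and equal in the other samples. Signals under the limit give no firm order of samples. The part of the 3' minus 5' difference of sample 17 in these values was not tested.

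Tyrobp, the adaptor through which Trem2 signals, lay above the limit in every sample. It stood at 7.55, 7.73, 7.91 and 7.89 in samples 11, 13, 15 and 17 (7.77 ± 0.17), a 1.29-fold span between samples 15 and 11. Tmem119, a surface protein used to tell microglia from macrophages of the blood, stood at 6.90, 7.16, 7.37 and 7.20 (7.16 ± 0.19). Its span of 1.38-fold likewise lay between samples 15 and 11. Ctss, the lysosomal protease cathepsin S, stood at 9.82, 9.84, 10.10 and 9.94 (9.92 ± 0.13), with sample 13 only 1.01-fold above sample 11. Sample 11 was lowest and sample 15 highest for all of Tyrobp, Tmem119 and Ctss.

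**Figure D2:**
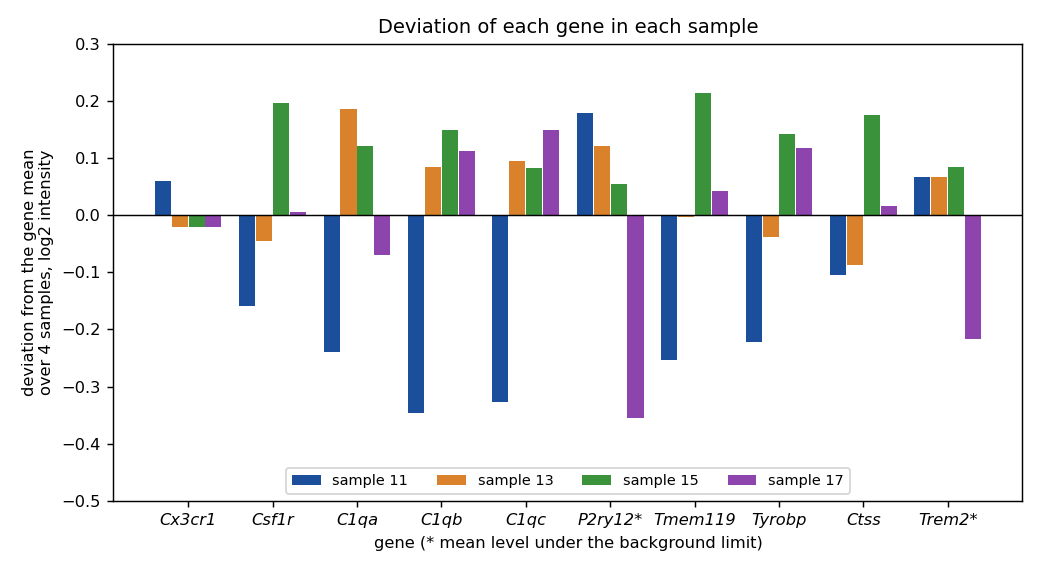
Deviation of each gene from its own mean over the 4 samples (bars, log2 intensity), by its probe set with the highest mean; asterisks mark P2ry12 and Trem2, under the background limit. Sample 11 is the lowest bar for 7 of the 8 detected genes, the exception being Cx3cr1. Sample 17 is the lowest for P2ry12 and Trem2, whose signals under the limit give no firm order of samples.

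Over the 8 detected genes, 7 were lowest in sample 11, or 87.5%, against 47.8% of all genes above the limit. Sample 15 was highest for 5 of the 8, or 62.5%, against 27.7% of all genes, and 5 were both lowest in sample 11 and highest in sample 15, against 17.1%. The mean deviation of the 8 genes was -0.20, 0.022, 0.13 and 0.044 across samples 11, 13, 15 and 17. Over all genes above the limit the same values were -0.051, -0.0011, 0.020 and 0.033. A low sample 11 was not particular to microglial genes, as the share of all genes shows. Of the genes not expected in hippocampus, the 3 above the limit, Krt10, Lct and Lor, were all lowest there too. Their mean deviation was -0.25, 0.035, 0.075 and 0.14, and their span of 1.32-fold exceeded the members' 1.26-fold. These 3 are a small part of the 51 measured genes of that list. Over all 51, most of them under the limit, the mean level was 4.19, 4.24, 4.19 and 4.18 in samples 11, 13, 15 and 17. Sample 11 was not the lowest there, but signals mostly under the limit give no firm order of samples. Set against sample 11, the median of the members was 1.16-fold, 1.29-fold and 1.18-fold higher in samples 13, 15 and 17, and that of all genes 1.03-fold, 1.05-fold and 1.06-fold. The 3 chains of C1q are parts of 1 protein; without them the mean deviation was -0.14, -0.038, 0.14 and 0.032 in samples 11, 13, 15 and 17. The SD of the mean deviation over the samples was 0.14, and 0.059 without sample 11. Between samples 11 and 13, 7 of 8 members were lower in sample 11, as were 61.6% of all genes above the limit. The 3' minus 5' differences of these samples were both 0.62 for Gapdh, and 1.10 and 1.25 for beta-actin. Their part in the order of samples was not tested.

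The spread of single probe sets was tested with limma, as the residual variance over the variance usual at that level. Of 11174 probe sets above the limit, 0 passed at an adjusted p of 0.05 (0%), and 341 had an unadjusted p under 0.05. None of the 11 probe sets of members among them passed even without adjustment: the smallest unadjusted p was 0.078, for the third Csf1r set, at an SD of 0.24, and the adjusted p was 0.892 for that and for each of the others except Cx3cr1, where it was 1. With 4 arrays the test has little power, the 0 calls are no sign that samples were alike, and the differences given here are descriptions. An SD above the median of all genes above the limit was seen for 7 of the 8 genes. The median SD over the 4 samples was 0.18 for the members and 0.082 for all genes. Without sample 11 it was 0.11 for the members, and it was not computed for all genes. C1qb and C1qc also lay above the 95th percentile of 0.21.

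**Figure D3:**
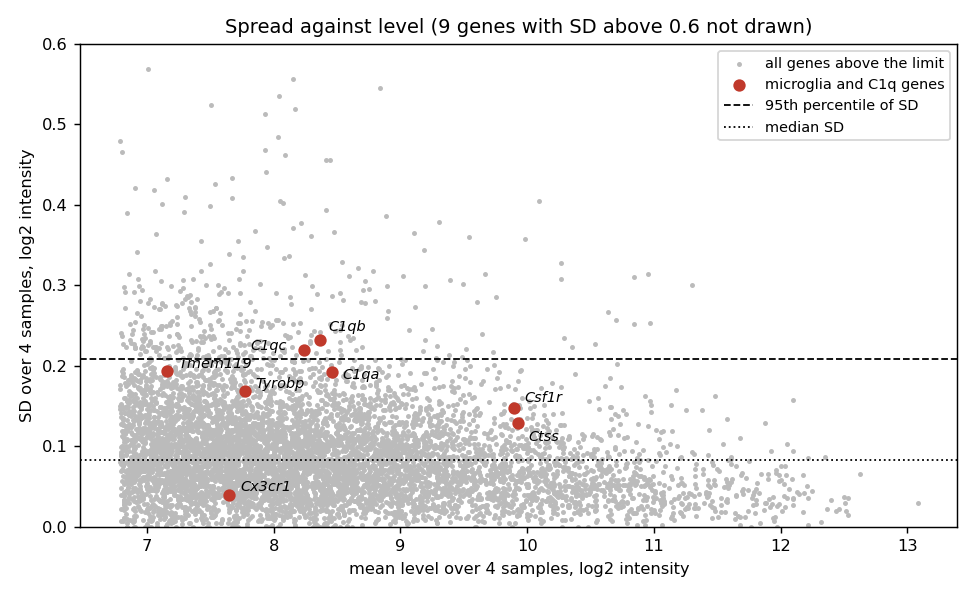
SD over the 4 samples against mean level (both log2 intensity) for all genes above the limit (grey) and the 8 detected microglia and C1q genes (red); lines mark the median SD of 0.082 and the 95th percentile of 0.21. C1qb and C1qc lie above the upper line and Cx3cr1 below the lower.

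Of 24 other genes typical of homeostatic microglia 23 were measured and 8 lay above the limit, or 34.8%, against 39.7% of all genes. Their mean deviation was -0.16, -0.023, 0.13 and 0.053 across samples 11, 13, 15 and 17. Sample 11 was lowest for 6 of the 8, or 75.0%, against 47.8% of all genes above the limit, and sample 15 highest for 6, against 27.7%. Olfml3, a secreted matrix protein, stood at 6.85, 7.24, 7.32 and 7.24 in samples 11, 13, 15 and 17. The Fc receptor-like gene Fcrls stood at 6.96, 7.25, 7.22 and 7.17. Laptm5, a lysosomal membrane protein, differed from both, with samples 11 and 13 low at 7.12 and 7.11 and samples 15 and 17 high at 7.58 and 7.57. The 15 genes under the limit ranged up to 6.43. Spi1, which encodes PU.1, was among them at 5.46 ± 0.12; it was named after its value was seen.

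Selplg, the P-selectin ligand of leukocytes and microglia, had the profile nearest to the members' mean among 1117 genes above the limit with at least as wide a range. It stood at 7.11, 7.32, 7.44 and 7.33 in samples 11, 13, 15 and 17, at a Euclidean distance of 0.013 over the 4 centred values. Stradb (0.025), Nfs1 (0.026), Ppa2 (0.026) and Sp1 (0.031) came next. For comparison, the members themselves lay between 0.098 for Tyrobp and 0.31 for Cx3cr1. With 4 samples a small distance is easily met, and it is given as a description.

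Markers of other immune cells stayed under the limit, which 39.7% of all genes passed. Of the macrophages at the brain's borders, 0 of 10 markers passed, with levels from 2.67 for Lyve1 to 5.58 for Stab1, and the defining genes Mrc1 and Cd163 stood at 3.42 and 3.22. Their levels summed over the 10 genes were 39.9, 38.7, 38.9 and 38.3 in samples 11, 13, 15 and 17; at this level of signal they give no order of samples. Of the blood leukocyte markers 0 of 12 passed, with levels from 3.37 to 5.60 and sums of 51.0, 50.9, 50.5 and 50.6.

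Among other brain cell types, myelin markers above the limit were highest in sample 13 for 9 of 9 genes, against 18.1% of all genes. Their mean deviations were -0.21, 0.40, -0.043 and -0.14 in samples 11, 13, 15 and 17. Mag, an adhesion protein of myelin, stood at 8.45, 9.12, 8.64 and 8.44. Astrocyte markers deviated by -0.092, 0.010, 0.026 and 0.056 in samples 11, 13, 15 and 17. Sample 11 was lowest for 6 of 10 of them, or 60.0%, against 47.8% of all genes above the limit. Gfap, their filament protein, stood at 9.98, 10.49, 10.25 and 10.44. Slc1a2 was the 1 astrocyte marker highest in sample 11, at 12.04, 11.93, 11.92 and 11.81. Neuronal markers deviated by -0.034 to 0.032 and endothelial markers by -0.050 to 0.027 over the samples. Whether these lists differ from the microglial one was not tested.

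**Figure D4:**
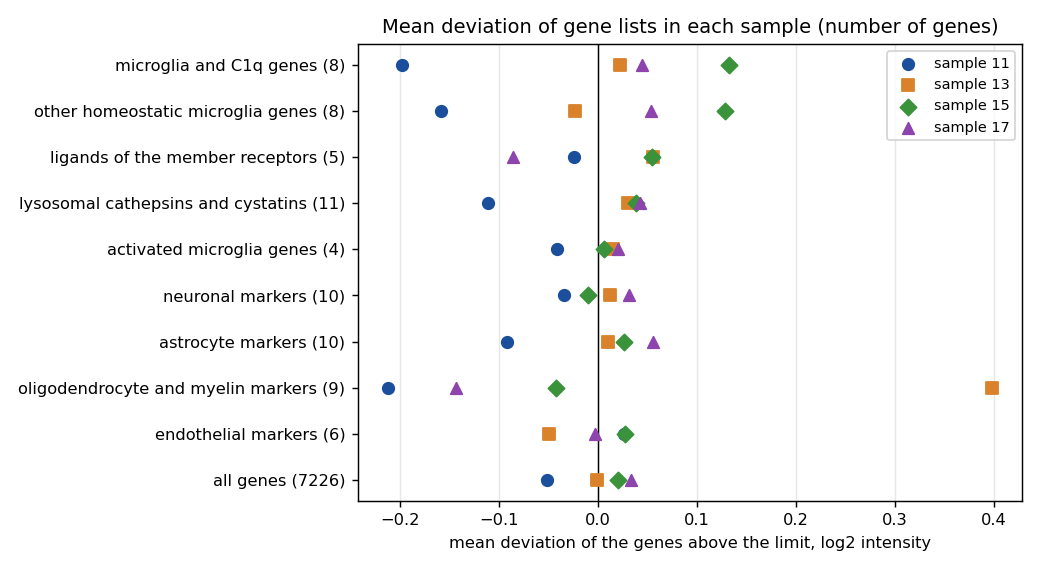
Mean deviation of gene lists in each sample (log2 intensity, genes above the limit, their number in brackets). The microglia and C1q genes run from -0.20 in sample 11 to 0.13 in sample 15, the other homeostatic microglia genes from -0.16 to 0.13, and all genes from -0.051 to 0.033.

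The ligands of the member receptors were detected in 5 of 6 cases, or 83.3%, against 39.7% of all genes. Cx3cl1, the fractalkine that CX3CR1 binds, stood at 9.88, 10.08, 9.90 and 9.70 in samples 11, 13, 15 and 17, lowest in sample 17. Csf1 stood at 7.15 in each sample but 17, where it stood at 7.18, and Il34, the other ligand of CSF1R, at 6.76, 6.79, 6.997 and 6.75. Apoe, a lipid carrier that TREM2 binds, stood at 12.14, 12.27, 12.11 and 11.89. Clu, an apolipoprotein that TREM2 also binds, stood at 11.95, 12.01, 12.13 and 12.05, lowest in sample 11 and highest in sample 15. The rule for naming genes did not include Clu, and it was the only one of the 5 detected ligands with that order. The mean deviation of the 5 ligands was -0.024, 0.056, 0.054 and -0.086, and 3 of the 5 were lowest in sample 17. Whether their order differs from that of the members was not tested.

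Few genes on the list for TREM2 and TYROBP signalling, which includes shedding proteases and other receptors, were above the limit. Of 13 measured genes 3 passed, or 23.1%, against 39.7% of all genes. All 3 are also expressed by other brain cells: the kinase Fyn at 9.09 ± 0.066, the shedding protease Adam10 at 7.62 ± 0.056 and the CD47 receptor Sirpa at 9.73 ± 0.043. Their mean deviations lay between -0.034 and 0.039. The kinase Syk, which TYROBP recruits, stood at 4.29 and Plcg2, a phospholipase of the pathway, at 6.16; both were named after their values were seen.

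Apart from C1q, the complement system was seen at 2 of 23 measured genes, or 8.7%, against 39.7% of all genes. The 2 were C1qbp, a mitochondrial protein that binds the globular heads of C1q, at 10.63 ± 0.072, and Cfp, the properdin of the alternative pathway, at 7.05 ± 0.15. Cfp stood at 6.82 in sample 13 and at 7.12 in the other 3 samples. The proteases that form the C1 complex with C1q lay under the limit, C1ra at 4.58 ± 0.088 and C1s1 at 3.59 ± 0.11, as did C2 at 6.19 ± 0.092. The phagocytic receptor subunits Itgam and Itgb2 stood at 3.09 and 5.32, and the anaphylatoxin receptor C3ar1 at 4.25. Genes under the limit were named here after their values were seen, and C3 and C4b were not analysed here.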

How the data were processed

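Per the labels' protocols, total RNA of whole left hippocampi was freed of DNA with DNase and amplified into biotin-labelled RNA. The authors deposited log2 intensities per probe set, made with RMA per the submitters' processing notes; its version and settings: not given in the sources used here. RMA brings arrays to a common distribution, so a change shared by most genes would be removed. The number of arrays limits the precision.

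Symbols came from the platform annotation and were brought up to date through Entrez identifiers in the RefSeq table of GRCm38.p6, which held 34754 of 34958 single-symbol probe sets; 932 carried several symbols and 9211 none. A gene was represented by its probe set with the highest mean. The background list held 58 genes, 51 of them measured; over all lists 223 of 246 genes were. Spread was tested across all probe sets above the limit with limma (lmFit, eBayes with trend and robust fit) as an F statistic with 3 residual degrees of freedom and the common prior ones, adjusted by Benjamini-Hochberg at 0.05. The prior degrees of freedom that the robust fit lowers for single probe sets were planned but replaced, a choice made after seeing the data, since they hid planted changes in simulated data; both forms made 0 calls. Tested on simulated data, the test found planted changes where all probe sets had equal variances, and almost none where variances differed as much as fitted.

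Named genes are all members, the first 4 measured genes above the limit of each other list, listed genes with an SD above the 95th percentile, and the 5 genes nearest in profile. Some genes were named outside this rule, among them Clu and genes under the limit. The members and lists were chosen with earlier results of these data known. The prior as lowered was kept as an alternative. Other alternatives covered the background limit, the filter, the choice of probe set, normalization, the prior and each sample or member left out. Tests ran in limma 3.58.1 under R 4.3.3, and figures in matplotlib 3.10.9 under Python 3.11.15.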

Additional observations from a re-analysis of the deposited data

Results flagged for a closer look

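Among 73 sets of 4 values examined, 13 had a lowest or highest sample far from the other 3. The rule's rate of about 1 in 20 holds for independent values without ties. Sets here hold ties and share genes, and the share over all genes was not computed, so whether the count is an excess cannot be judged. The share of the range taken by the gap to the nearest other sample was 0.871 for C1qb (8.02 in sample 11), 0.978 for its second set (6.60 in sample 11) and 0.863 for C1qc (7.91 in sample 11). It was 0.941 for Trem2 (5.93 in sample 17). For Cx3cr1 (7.71 in sample 11), the second Trem2 set (4.48 in sample 11), Csf1 (7.18 in sample 17) and Cfp (6.82 in sample 13) the other 3 samples hold the same value, so the share is 1 by construction.

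Of the other lists, the mean deviation of the cathepsins and cystatins had a share of 0.922, with sample 11 low at -0.11. The share was 0.858 for Il34 (6.997 in sample 15), 0.94 for C1qbp (10.74 in sample 17), 0.871 for Axl (7.08 in sample 17) and 0.851 for Mobp (10.72 in sample 13).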

How the results depend on the processing

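No paired analysis was possible because there is a single group. The test of spread has too little power for its count of 0, the same under each alternative run, to speak of stability; there were 49 to 445 probe sets at an unadjusted p under 0.05, and the adjusted p of members ran from 0.448 to 1. The number of members above the limit was 7 to 10, with 10 when the limit was the median of all probe sets. The members' mean deviation in sample 11 was -0.23 to -0.11 and in sample 15 0.067 to 0.15, and 6 or 7 members were lowest in sample 11. The median SD of the members was 0.11 to 0.21 with each sample left out in turn, lowest without sample 11. With each sample left out in turn, 1 to 6 members were highest in sample 17, the 6 without sample 15, and 1 to 2 in sample 13. Without samples 15 and 17, a choice made after seeing the data, 7 were highest in sample 13, since only sample 11 remained. Highest in sample 17 were 2 with each array centred on its median. Highest in sample 11 were 0 with the median over the probe sets of a gene and 2 over all measured members. The cause was not tested where none is given. The SD of C1qb minus C1qc was 0.014 to 0.054 with each sample left out in turn.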

Other observations

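Lysosomal genes other than Ctss, namely cathepsins, cystatins and lysosomal membrane proteins, were detected in 11 of 15 cases. This was 73.3%, against 39.7% of all genes. Sample 11 was lowest for 9 of the 11, or 81.8%, against 47.8% of all genes above the limit, and their mean deviation was -0.11, 0.030, 0.039 and 0.042 in samples 11, 13, 15 and 17. Ctsb stood at 10.77, 10.87, 10.79 and 10.78 and Ctsd, an aspartic protease, at 9.88, 10.05, 9.92 and 9.86. Ctsd was lowest in sample 17, and Ctso, at 7.78, 7.70, 7.98 and 8.19, was lowest in sample 13.

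Genes that microglia raise on activation were above the limit in 4 of 19 cases, or 21.1%, against 39.7% of all genes. The 4 were Lpl, Axl, Cd9 and Csf2ra. In samples 11, 13, 15 and 17 the lipase Lpl stood at 8.65, 8.49, 8.65 and 8.81 and the tetraspanin Cd9 at 8.43, 8.79, 8.58 and 8.59. The mean deviation of the 4 genes lay between -0.041 and 0.020. Which cells of the tissue gave the signals of the 4 genes was not tested. Markers of disease-associated microglia named after their values were seen lay under the limit, with Cst7 at 3.65, Itgax at 4.04 and Clec7a at 3.38, and the cytokine genes Tnf and Il1b at 4.72 and 4.09.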
